A study of Mus musculus with 2 samples.

Results

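The genes described are 54 genes of the G2 and M phases of the cell cycle, chosen from a named list of kinetochore, spindle, condensin and cytokinesis genes and found by gene symbol among the 41592 rows of the deposited expression table. All 54 had a row, and all 54 were above 0 in both libraries. The rule names the genes by symbol and uses no measured value, but the list was proposed with earlier results of these data known. They were measured by RNA-seq in CD4+ T cells enriched with magnetic beads and sorted, to a stated purity above 97%, from spleen and lymph nodes of C57BL/6 mice 6 to 8 weeks old. Each of 2 sorted populations gave 1 library, so the differences below are between single libraries, without replicates and without p-values.

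Every mouse carried Foxp3 ΔCNS1-Cre-R26-YFP. Here Cre is under the control of Foxp3 sequences from which CNS1, a conserved noncoding enhancer, is deleted, and a YFP reporter at the Rosa26 locus stays on in any cell where Cre has acted and in its progeny. Both populations were YFP-positive. One was Thy1.1-negative and the other Thy1.1-positive, and there was no YFP-negative library and no library of mice without the transgenes among the samples. The number of mice behind a library is not given in the sources used here. The question was how regulatory T cells of thymic origin differ from precursors of cells that lose Foxp3. The design text assigns 1 marker pair to both of these, so the populations keep the marker names of the sample titles. Cd4 was at 471 FPKM in Thy1.1-negative and 327 FPKM in Thy1.1-positive cells, Cd3e at 292 and 248 FPKM, and Foxp3, the defining transcription factor of regulatory T cells, at 158 and 237 FPKM.

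A cell that divides copies its DNA, condenses its chromosomes and pulls the copies apart on a spindle of microtubules. Cyclin-dependent kinase 1 bound to A-type and B-type cyclins drives entry into mitosis, the checkpoint holds the cell until every kinetochore is attached, and the anaphase promoting complex then destroys cyclin B and securin. Most genes of this program are transcribed late in the cell cycle and kept low in resting lymphocytes by the DREAM repressor complex, which binds their promoters through the CHR element, often beside CCAAT boxes bound by NF-Y.

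The 300 bases around the transcription start (250 before, 50 after) were read from RefSeq (GRCm38.p6) for 45 of the 54 genes. Entries were missing for Ccna2, Aurkb, Incenp, Spc24, Tpx2, Stmn1, Smc4, Foxm1 and Kif20a. A CHR element, searched as TTTGAA or TTCGAA on both strands, was present in 35 of 45 (77.8%), against 21.7% of all 27025 genes with a window. A CCAAT box, searched as CCAAT on both strands, was present in 33 of 45 (73.3%), against 41.1% of all genes. Both were present in 30 of the 45. An E2F core, searched as TTTGGCGC, TTTCGCGC or TTTGCGC on both strands, was present in 4 of 45 (8.89%), against 2.75% of all genes. These 3 motifs were searched separately, and their matches may overlap. The windows below run from 150 bases before the start to 50 after it. They show promoters at both ends and in the middle of the range of differences described next, with CHR elements and CCAAT boxes in capitals. Ube2c and Birc5 had nearly the same ratio between libraries, and Cenpa and Pttg1 were among the genes that differed least.
Ube2c, GRCm38.p6 chr2:164769779-164769978, plus strand: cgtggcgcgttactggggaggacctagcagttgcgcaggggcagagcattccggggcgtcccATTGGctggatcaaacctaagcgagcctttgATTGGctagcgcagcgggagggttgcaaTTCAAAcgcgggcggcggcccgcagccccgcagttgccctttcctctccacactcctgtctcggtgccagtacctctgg
Birc5, GRCm38.p6 chr11:117849087-117849286, plus strand: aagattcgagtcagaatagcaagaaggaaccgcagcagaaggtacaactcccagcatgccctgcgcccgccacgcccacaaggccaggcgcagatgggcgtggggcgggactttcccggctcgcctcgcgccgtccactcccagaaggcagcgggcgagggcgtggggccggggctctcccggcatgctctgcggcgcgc
Ccnb2, GRCm38.p6 chr9:70421505-70421704, minus strand: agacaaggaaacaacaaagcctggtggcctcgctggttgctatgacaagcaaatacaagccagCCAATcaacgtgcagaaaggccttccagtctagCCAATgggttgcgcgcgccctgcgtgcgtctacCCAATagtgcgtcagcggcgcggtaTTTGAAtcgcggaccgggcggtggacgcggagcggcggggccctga
Cdc20, GRCm38.p6 chr4:118437294-118437493, minus strand: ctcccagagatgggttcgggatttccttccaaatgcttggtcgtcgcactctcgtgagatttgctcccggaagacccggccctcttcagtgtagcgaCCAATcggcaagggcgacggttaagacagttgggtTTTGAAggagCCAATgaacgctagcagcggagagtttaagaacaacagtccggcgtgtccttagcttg
Cenpa, GRCm38.p6 chr5:30666736-30666935, plus strand: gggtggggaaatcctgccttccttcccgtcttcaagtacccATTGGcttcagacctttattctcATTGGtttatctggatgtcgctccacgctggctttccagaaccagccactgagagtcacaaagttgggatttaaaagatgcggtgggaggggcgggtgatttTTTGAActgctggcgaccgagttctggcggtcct
Pttg1, GRCm38.p6 chr11:43425932-43426131, minus strand: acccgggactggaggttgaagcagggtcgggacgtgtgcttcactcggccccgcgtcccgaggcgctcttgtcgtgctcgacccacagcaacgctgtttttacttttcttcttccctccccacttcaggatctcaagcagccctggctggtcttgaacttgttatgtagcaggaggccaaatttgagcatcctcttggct
The Ube2c window held a CHR element 29 bases before the start on the minus strand, with CCAAT boxes on that strand 57 and 88 bases before the start. Ccnb2 had the 3 CCAAT boxes at 87, 54 and 21 bases before the start and its CHR element 4 bases after it. In Cenpa the CHR element began 16 bases after the start, and in Cdc20 18 bases before it. No match lay in the Birc5 or Pttg1 windows, which says only that these letters are not there. A match is a description of the letters and not a binding site.

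Levels are FPKM, fragments scaled by transcript length and sequencing depth, as the authors deposited them, and values are given in the order Thy1.1-negative, Thy1.1-positive. The median over the 54 genes was 5.99 FPKM in Thy1.1-negative and 1.45 FPKM in Thy1.1-positive cells. A difference is that of log2(FPKM + 1), Thy1.1-negative minus Thy1.1-positive. It understates the change of genes at low levels. A gene was called higher or lower where the difference was at least 1 or at most -1 and the mean of both libraries at least 1 FPKM. A ratio is that of the FPKM values themselves. The interval in parentheses after a ratio is an exact Clopper-Pearson interval at 95% from the whole reads recovered from the FPKM values. It covers counting error only, and not variation between mice, sorts or library preparations.

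Genes of mitosis stood higher in Thy1.1-negative cells. Of the 54 genes, 50 had a mean of at least 1 FPKM, and 32 of these were higher and 0 lower. Over all 12820 genes at that level, 247 (1.93%) were higher and 148 (1.15%) were lower. With upper quartile scaling these counts were 409 and 80, and 39 of the 50 genes were higher. A pseudocount of 5 left 8 of the 50 called. The 32 genes were 13.0% of all genes called higher, and 16 of the 54 stood among the 100 genes with the largest difference. The median difference of the 50 genes was 1.19, against 0.03 over all genes. Ttk, Espl1, Nuf2 and Anln had a mean below 1 FPKM and were not called. A further 16 genes were below 1 FPKM in Thy1.1-positive cells and passed only through their level in Thy1.1-negative cells. They had to differ, and their calls are a description. The counts by role below include such genes, and the shares of all genes given here stand beside those counts too. Among the 34 genes at 1 FPKM or more in Thy1.1-positive cells, 16 were higher, with a median difference of 0.92 and a median ratio of 2.19. Of the 12462 genes at that level in that library, 142 (1.14%) were higher. In bulk samples, more cells in mitosis and more mitotic RNA per cell cannot be told apart.

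Without a pseudocount or a filter, 38 of the 54 genes had a ratio of at least 2, which 15.0% of the 23442 genes above 0 in both libraries reached. The ratio was at least 4 for 24 genes and at least 10 for 8. It lay between 1 and 1.5 for 5 genes and below 1 for 1, Smc4. Counting intervals lay above 1 for 47 of the 50 genes, against 27.4% of all 12820 genes, and below 1 for 1 of them, against 19.2%. Of all 54 genes, 51 had an interval above 1, and those of Spc25 and Pttg1 included 1. For 31 genes the interval lay above 2. The 32 genes called higher include Spc24, Mybl2 and Cdc20, whose intervals include 2. Reads behind a gene ran from 19 to 11638 in the Thy1.1-negative library (median 184.5) and from 4 to 14014 in the Thy1.1-positive library (median 55), and 12 genes had under 20 reads in the latter.

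**Figure D1:**
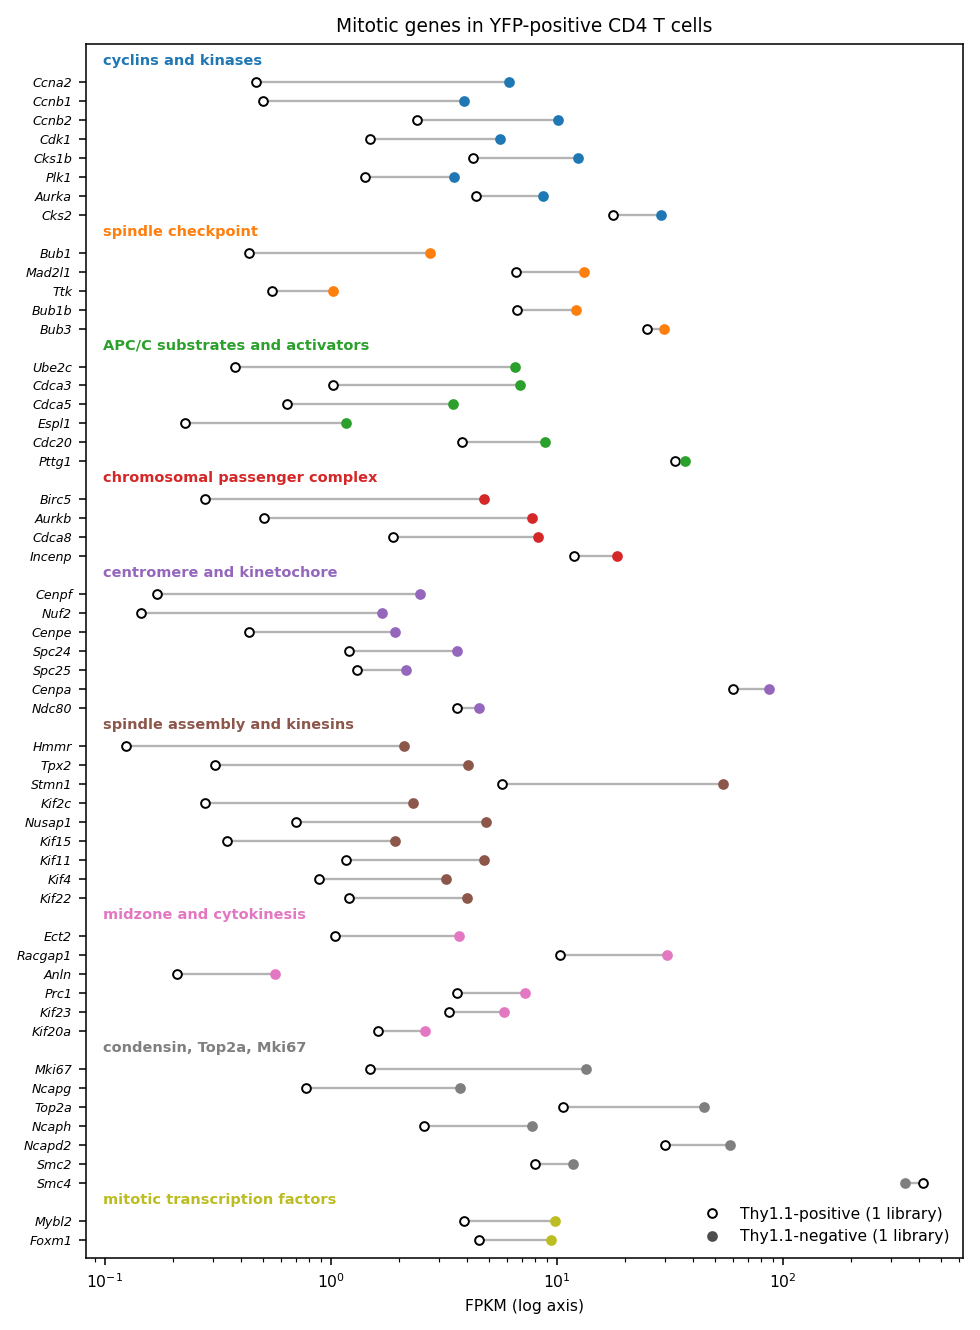
FPKM of each of the 54 genes in both libraries on a log axis, grouped by role, with 1 point per library. The Thy1.1-negative point lies to the right for 53 genes, and Smc4 is the exception at 347 and 416 FPKM.

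Among the cyclins and kinases that carry a cell into mitosis, 5 of 8 genes were higher and the median ratio was 3.34. Ccna2, the A-type cyclin, was at 6.15 and 0.464 FPKM, a ratio of 13.3 (7.71 to 24.7) from 185 and 14 reads. The B-type cyclins Ccnb1, at 3.86 and 0.498 FPKM, and Ccnb2, at 10.1 and 2.41 FPKM, had ratios of 7.74 (4.42 to 14.6) and 4.19 (3.21 to 5.53). Their partner kinase Cdk1 was at 5.61 and 1.49 FPKM, 3.76-fold higher (2.46 to 5.93). Reads for Cdk1 rest on a multiple of the smallest whole numbers, and with those smallest numbers its interval of 1.2 to 15.6 overlaps those of all 3 cyclins. Aurka, the centrosomal Aurora kinase, was at 8.63 and 4.38 FPKM, a ratio of 1.97 (1.56 to 2.50). Plk1, the Polo-like kinase of mitotic entry and spindle assembly, was at 3.5 and 1.42 FPKM, a ratio of 2.47 (1.81 to 3.42) that the pseudocount kept below the call. Cks1b and Cks2 encode small subunits that bind cyclin-dependent kinases. Cks1b was higher, at 12.4 and 4.25 FPKM (2.91-fold, 2.11 to 4.07), and Cks2 was not called, at 28.9 and 17.7 FPKM (1.63-fold, 1.38 to 1.93).

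Of the spindle checkpoint genes, 1 of the 4 above the filter was called higher, and the median ratio was 1.91. That 1 was Bub1, a kinase at the kinetochore, at 2.75 and 0.434 FPKM, a ratio of 6.32 (3.22 to 13.8) from 63 and 10 reads. Its partner Bub3, a WD-repeat protein that brings it to the kinetochore, was at 29.6 and 25.0 FPKM, a ratio of 1.19 (1.09 to 1.29). The intervals of these partners do not overlap. Bub1b, which encodes the checkpoint protein BubR1, was at 12.1 and 6.63 FPKM (1.82-fold, 1.5 to 2.22), and Mad2l1, which encodes the Mad2 protein that holds Cdc20, at 13.2 and 6.58 FPKM (2.0-fold, 1.74 to 2.30). Ttk, the Mps1 kinase at the head of the checkpoint, was at 1.02 and 0.551 FPKM from 37 and 20 reads.

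Of the substrates and activators of the anaphase promoting complex, 4 of 5 above the filter were higher. Ube2c, the ubiquitin-conjugating enzyme that works with the complex, had the highest ratio of all 54 genes, 17.3 (9.47 to 35.3), at 6.49 and 0.375 FPKM from 190 and 11 reads. Cdc20, the activator that the checkpoint holds back, was at 8.80 and 3.81 FPKM, a ratio of 2.31 (1.74 to 3.08). Securin, encoded by Pttg1, is the inhibitor of separase that the complex destroys at anaphase. Pttg1 was at 36.7 and 33.4 FPKM, a ratio of 1.1 whose interval of 0.970 to 1.25 includes 1. Separase itself, encoded by Espl1, was at 1.16 and 0.227 FPKM, a ratio of 5.12 (3.40 to 7.98) from 143 and 28 reads. The intervals of the protease and its inhibitor do not overlap. Cdca5, the cohesin protector sororin, was at 3.47 and 0.639 FPKM (5.43-fold, 3.42 to 8.99), and Cdca3, a trigger of mitotic entry, at 6.87 and 1.02 FPKM (6.70-fold, 4.27 to 11.0).

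Within the chromosomal passenger complex, 3 of the 4 subunits were higher and the scaffold was not. Aurkb, the Aurora kinase of the complex, was at 7.76 and 0.508 FPKM, a ratio of 15.3 (7.81 to 34.1) from 137 and 9 reads. Birc5, survivin, was at 4.76 and 0.276 FPKM, a ratio of 17.2 (9.42 to 35.1) from 189 and 11 reads. Cdca8, borealin, was at 8.27 and 1.89 FPKM, a ratio of 4.38 (3.20 to 6.11). Incenp, the scaffold that binds the other subunits, was at 18.3 and 11.9 FPKM, a ratio of 1.54 (1.4 to 1.69) from 1093 and 713 reads. The Incenp interval lies below those of the other 3 subunits.

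Centromere and kinetochore genes varied as widely, with 3 of 6 above the filter called higher. Cenpf and Cenpe encode large proteins of the outer kinetochore. Cenpf was at 2.47 and 0.171 FPKM, a ratio of 14.5 (8.07 to 28.5) from 173 and 12 reads, and Cenpe, a kinesin, at 1.92 and 0.434 FPKM (4.43-fold, 3.36 to 5.92). Cenpa, the histone H3 variant that marks the centromere, was the second most abundant of the 54 genes in both libraries, at 86.8 and 59.6 FPKM (1.46-fold, 1.35 to 1.57). The 4 subunits of the Ndc80 complex, the microtubule coupler of the kinetochore, had unlike ratios. Nuf2 had a ratio of 11.7 (5.12 to 33.0) from 70 and 6 reads, at 1.69 and 0.144 FPKM. Its coiled-coil partner Ndc80 had a ratio of 1.26 (1.01 to 1.57), at 4.51 and 3.59 FPKM from 184 and 147 reads. Spc24 was at 3.60 and 1.2 FPKM (3.01-fold, 1.97 to 4.72), and Spc25 at 2.15 and 1.31 FPKM, a ratio of 1.65 with an interval of 0.977 to 2.82. Reads for Spc24 and Nuf2 rest on a multiple of the smallest whole numbers. With those smallest numbers the interval of Spc24 includes 1, and that of Nuf2 is 3.69 to 59.5.

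All 9 genes of spindle assembly and the spindle kinesins were above the filter and called higher, with a median ratio of 6.90 and a lowest of 3.34. Of these, Nusap1, Tpx2, Hmmr, Kif4, Kif15 and Kif2c were below 1 FPKM in Thy1.1-positive cells, so their calls are a description. Stmn1, stathmin, binds tubulin dimers and destabilizes microtubules. It had the largest difference of the 54 genes (3.03), ranked 5 among all 12820, and was at 53.9 and 5.70 FPKM from 782 and 83 reads. Tpx2, which activates Aurora A on the spindle, was at 4.03 and 0.307 FPKM, a ratio of 13.1 (7.62 to 24.5). The interval of Tpx2 lies above that of its kinase Aurka. Hmmr, a spindle pole protein, rested on 68 and 4 reads, at 2.11 and 0.124 FPKM (17.1-fold, 6.37 to 64.4). Nusap1, which binds microtubules near chromosomes, was at 4.84 and 0.702 FPKM (6.90-fold, 4.48 to 11.1). Kif11, the kinesin that separates spindle poles, was at 4.75 and 1.16 FPKM (4.09-fold, 3.29 to 5.12), and Kif15, which can share that work, at 1.93 and 0.346 FPKM (5.57-fold, 3.78 to 8.45). Kif2c, a microtubule depolymerase, was at 2.31 and 0.276 FPKM (8.36-fold, 3.58 to 23.9). The chromokinesins Kif4 and Kif22 lay lowest in the group, Kif4 at 3.22 and 0.884 FPKM (3.64-fold, 2.49 to 5.46) and Kif22 at 4.0 and 1.2 FPKM (3.34-fold, 2.39 to 4.75).

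Genes of the spindle midzone and of cytokinesis were called higher in 2 of 5 cases. Racgap1 and Kif23 encode the 2 components of centralspindlin, the complex that bundles midzone microtubules. Racgap1 was at 30.7 and 10.3 FPKM (2.97-fold, 2.58 to 3.44) and Kif23 at 5.83 and 3.31 FPKM (1.76-fold, 1.48 to 2.09), with intervals that do not overlap. Ect2, the exchange factor that centralspindlin recruits to activate RhoA, was at 3.67 and 1.04 FPKM (3.53-fold, 2.43 to 5.23). Prc1, which crosslinks antiparallel microtubules, was at 7.19 and 3.62 FPKM (1.98-fold, 1.60 to 2.46). Kif20a, a midzone kinesin, was at 2.62 and 1.61 FPKM (1.62-fold, 1.27 to 2.08). Anln, anillin of the contractile ring, was the least abundant in the Thy1.1-negative library, at 0.567 and 0.208 FPKM from 19 and 7 reads.

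Of the 7 genes of condensin I and the chromosome surface, 4 were higher, and the ratios within condensin I, the ring that compacts mitotic chromosomes, ran from below 1 to 4.76. Smc4 was the only gene of the 54 lower in the Thy1.1-negative library, at 347 and 416 FPKM, a ratio of 0.833 (0.813 to 0.854) from 11638 and 14014 reads. Its difference of -0.26 came to -0.01 with upper quartile scaling. Its partner ATPase Smc2 was at 11.7 and 7.96 FPKM, a ratio of 1.47 (1.29 to 1.67). The subunits that complete condensin I had ratios of 1.92 (1.73 to 2.13) for Ncapd2, 3.00 (2.26 to 4.02) for Ncaph and 4.76 (3.29 to 7.06) for Ncapg, at 57.9 and 30.1, 7.75 and 2.59, and 3.70 and 0.778 FPKM. Smc4 alone made up 59.3% of the summed FPKM of the 54 genes in Thy1.1-positive cells and 35.4% in Thy1.1-negative cells. The sum was 980 and 701 FPKM with Smc4 and 634 and 285 FPKM without it, ratios of 1.4 and 2.22. Top2a, the topoisomerase that untangles sister chromatids, was at 44.7 and 10.6 FPKM (4.21-fold, 3.73 to 4.76). Mki67, the proliferation marker that coats mitotic chromosomes, was at 13.5 and 1.49 FPKM (9.0-fold, 7.95 to 10.2) from 2512 and 280 reads.

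The transcription factors that activate this program had ratios below the median of 3.43 over the 50 genes. Mybl2, which encodes B-Myb, was higher, at 9.77 and 3.89 FPKM (2.51-fold, 1.97 to 3.22). Foxm1 was at 9.41 and 4.53 FPKM, a ratio of 2.08 (1.69 to 2.57) and a difference of 0.91, below the call.

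**Figure D2:**
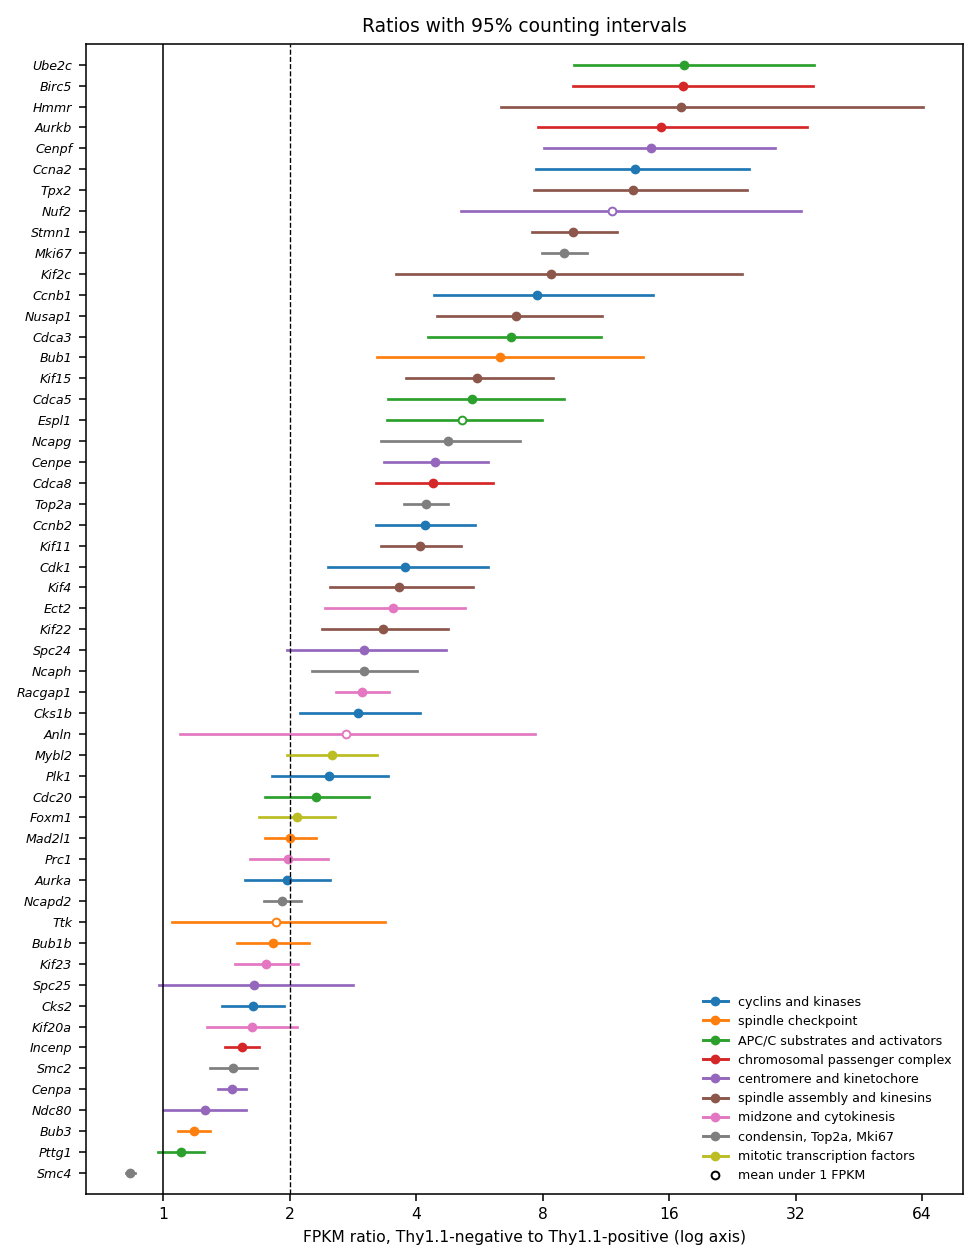
Ratio of FPKM, Thy1.1-negative over Thy1.1-positive, for each of the 54 genes on a log axis, ordered by ratio and coloured by role, with bars for the 95% counting interval. Incenp, Smc2, Cenpa, Ndc80, Bub3, Pttg1 and Smc4 lie at 1.54 or below. For Incenp, Bub3, Ndc80, Smc4 and Pttg1, other subunits or partners in their complexes lie further to the right.

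Of the 6 genes with a ratio under 1.5, 4 were at 10 FPKM or more in Thy1.1-positive cells. The 9 genes at 10 FPKM or more there (Cks2, Bub3, Pttg1, Incenp, Cenpa, Racgap1, Smc4, Ncapd2 and Top2a) had a median ratio of 1.54, and 2 of them were higher. Of the 45 genes below that level, 41 were above the filter, 30 were higher and the median ratio was 4.09. The ratio has the Thy1.1-positive level as its divisor, so these are not independent quantities. The excess, the Thy1.1-negative FPKM minus the Thy1.1-positive FPKM, reads otherwise. Its median was 11.2 FPKM over the 9 genes and 3.57 FPKM over the 45. The excess is not independent of level either, since the same ratio gives a larger excess at a higher level. Its counting SE does not cover the scaling between libraries. Bub3, with a ratio of 1.19, had an excess of 4.63 ± 1.2 FPKM (counting SE), near the 4.49 ± 0.356 of Birc5 and the 4.12 ± 0.616 of Cdk1. For Pttg1 it was 3.32 ± 2.21 FPKM, for Cks2 11.2 ± 1.91 and for Cenpa 27.2 ± 2.81. Incenp, at 6.41 ± 0.712 FPKM, was close to Aurkb at 7.25 ± 0.684. Ndc80, at 0.919 ± 0.445 FPKM, and Smc4, at -69.3 ± 4.76 FPKM, had a small or negative excess as well as a small ratio.

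**Figure D3:**
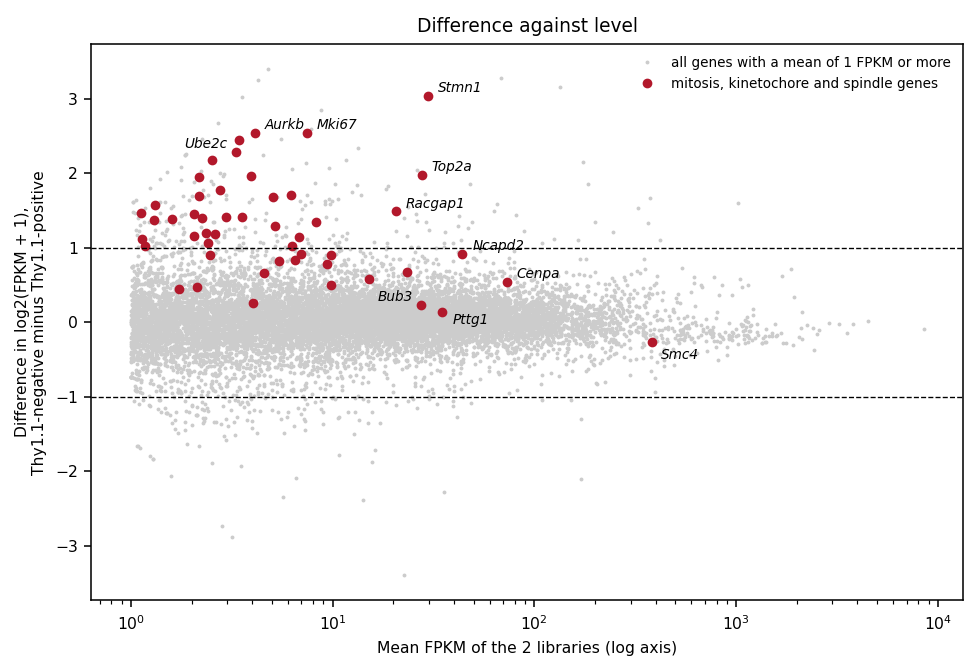
Difference in log2(FPKM + 1), Thy1.1-negative minus Thy1.1-positive, against the mean FPKM of the libraries on a log axis, for the 12820 genes with a mean of 1 FPKM or more in grey and the 50 genes of the list at that level in red. Dashed lines mark 1 and -1, and 32 red points lie on or above the upper line and 0 below the lower line.

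The share of promoters with each motif was set beside the call, with no test. A match to the searched CHR letters was present in 21 of the 27 genes called higher that had a window (77.8%) and in 14 of the other 18 (77.8%). The CCAAT box was present in 20 of 27 (74.1%) and 13 of 18 (72.2%), and the E2F core in 3 of 27 (11.1%) and 1 of 18 (5.56%). The other 18 include Nuf2, Espl1, Anln and Ttk, which were under the filter and could not be called. Their ratios were 11.7, 5.12, 2.72 and 1.86, so the 18 are not all genes that differed little. The median ratio was 3.53 over the 35 genes with a match to TTTGAA or TTCGAA and 3.71 over the 10 without. Other letters were not searched for the CHR element, so a gene without a match is not shown to lack it. Bub3 and Ndc80, with ratios of 1.19 and 1.26, had a match, as had Ube2c at 17.3.

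Other genes of the same processes, from lists separate from the 54, had a smaller median difference of 0.29. Of the 130 above the filter, 17 (13.1%) were higher and 0 lower, against 1.93% and 1.15% of all genes. Most of the 17 were below 1 FPKM in Thy1.1-positive cells: Cep55, Kif18b, Nek2, Pbk, Pimreg, Shcbp1, Cenph, E2f7, E2f8 and Mcm10. These passed the filter only through their level in Thy1.1-negative cells, so their calls are a description. The 13.1% rests largely on them. The other genes called were Cdc25b, Cit, Knstrn, Spag5, Cenpm, E2f2 and Rrm2. Of all genes at 1 FPKM or more in Thy1.1-positive cells, 1.14% were higher. The share of these lists at that level was not computed. Among 30 other spindle and cytokinesis genes, 10 were higher and the median difference was 0.67. Nek2, a centrosomal kinase, was at 3.79 and 0.298 FPKM (12.7-fold, 6.47 to 28.5). The spindle proteins Knstrn, at 6.58 and 1.4 FPKM, and Spag5, at 6.28 and 1.39 FPKM, had ratios of 4.69 and 4.53. Pkmyt1, an inhibitory kinase of Cdk1, had the smallest difference in this list, at 7.57 and 7.73 FPKM. Cdc25b, a phosphatase that activates Cdk1, was chosen after its values were seen as the gene with the largest difference in FPKM in the list, at 97.9 and 32.1 FPKM (3.05-fold, 2.81 to 3.31).

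Of 22 constitutive centromere and outer kinetochore genes, 2 were higher, and the median difference was 0.25. Cenph was at 2.84 and 0.333 FPKM (8.53-fold, from 51 and 6 reads) and Cenpm at 3.22 and 1.02 FPKM (3.15-fold). Nsl1, of the Mis12 complex, was at 2.61 and 0.988 FPKM and not called, and Cenpu was at 3.35 and 3.75 FPKM. The list of 15 genes of the anaphase promoting complex holds its subunits and the activator Fzr1. These 15 genes and the 13 genes of cohesin and condensin II held 0 higher and 0 lower genes. The median differences were 0.02 and 0.11. The extremes among the former were Anapc15, at 3.78 and 2.68 FPKM, and Cdc26, at 9.43 and 12 FPKM. Anapc16 was at 35.5 and 27.4 FPKM and Anapc2 at 79.8 and 97.8 FPKM. The extremes among the latter were Ncapg2, a condensin II subunit at 2.75 and 0.879 FPKM (3.13-fold, 2.51 to 3.93), and Mau2, a cohesin loader at 38.7 and 43.7 FPKM. The cohesin subunits Stag2, at 84.4 and 74.1 FPKM, and Smc1a, at 110 and 96.9 FPKM, had ratios of 1.14 and 1.13.

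Of the 18 genes of the DREAM complex, the Rb family and the E2F factors, 3 were higher, and the median difference was 0.18. These were E2f8, at 2.74 and 0.222 FPKM (12.3-fold), E2f7, at 3.57 and 0.884 FPKM (4.05-fold), and E2f2, at 25.5 and 11.7 FPKM (2.19-fold). E2f7 and E2f8 are the atypical, repressive E2F factors. E2f5 was the lowest of the list, at 4.84 and 5.59 FPKM. Of 32 DNA replication genes, 2 were higher, and the median difference was 0.40. Rrm2, the ribonucleotide reductase subunit that peaks in S phase, was at 22.8 and 3.74 FPKM (6.11-fold, 4.81 to 7.85), and Mcm10, a replication initiation factor, at 2.75 and 0.501 FPKM (5.49-fold, 3.25 to 9.82). Prim1, a primase subunit, was at 10.1 and 4.88 FPKM (2.08-fold). Gins1, of the replicative helicase, was lowest, at 2.82 and 3.86 FPKM (0.732-fold, 0.459 to 1.16). The difference between the lists was not tested.

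**Figure D4:**
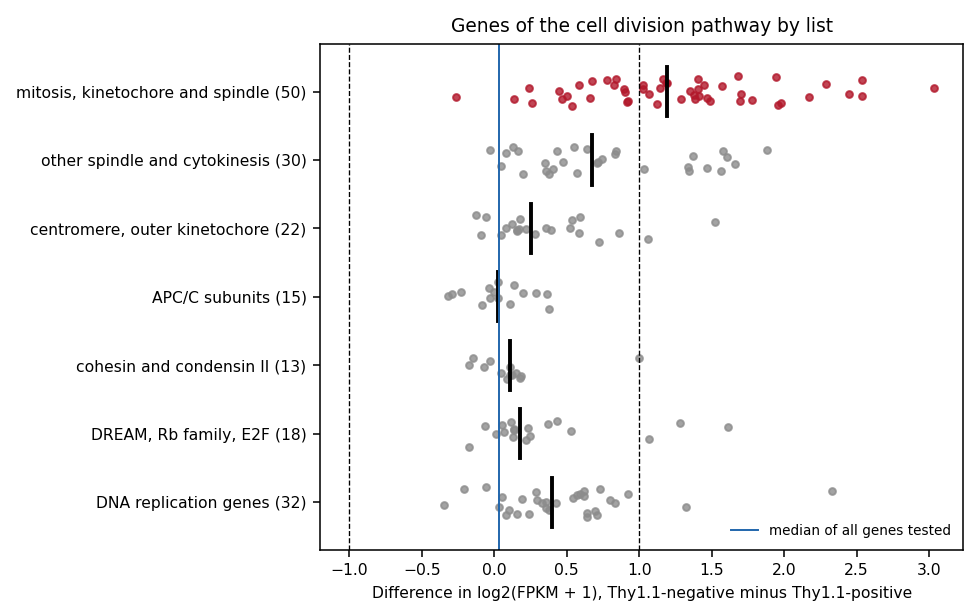
Difference in log2(FPKM + 1), Thy1.1-negative minus Thy1.1-positive, for each gene with a mean of 1 FPKM or more in the list of 54 and in 6 related lists, with 1 point per gene and a bar at the median. The median is 1.19 for the 54 genes and 0.67 for other spindle and cytokinesis genes. It is 0.02 for the subunits of the anaphase promoting complex with its activator Fzr1.

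Depth was alike, with totals of 18536339 and 18600581 reads inferred from the FPKM values and annotated gene lengths. In the libraries 28107 and 25709 genes were above 0. Markers of other cells that a sort could carry were mostly low. The 8 myeloid and dendritic cell markers summed to 5.87 FPKM in Thy1.1-negative and 1.1 FPKM in Thy1.1-positive cells, none at 0, with Itgam at 4.17 and 0.272 FPKM and the 7 others below a mean of 1 FPKM. The 7 B cell markers summed to 9.31 and 7.12 FPKM with none at 0, and the 7 CD8 and natural killer markers to 21.6 and 20.5 FPKM, with Ncr1 at 0 in the Thy1.1-negative library and Klrb1c at 2.09 and 0.445 FPKM. Plasma cell markers, which activated T cells partly share, summed to 188 FPKM in each library. Of these Prdm1 was at 15.0 and 6.62 FPKM, and the defining Jchain at 0.440 and 0.779 FPKM. Erythroid markers summed to 53.5 and 65.1 FPKM, most of it Tfrc. The part of these cells in the differences above was not tested.

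Some reads cannot be assigned with certainty, since strand use in the counting is not given. In the GENCODE M21 annotation, 15 of the 54 genes share exon bases with another gene, 6 of them over more than 10% of their exons and all 6 on the opposite strand. Ube2c overlaps Tnnc2 over 22.8% and Ccna2 overlaps Exosc9 over 12.5%. Kif20a overlaps Cdc23 over 29.3% of its exon bases, and Cdc23 was at 16.5 and 19.5 FPKM. For Kif4, Ncapg and Prc1 the shares were 15.1%, 13.4% and 11.1%. Stretches of at least 100 bases at 95% identity in another gene, mostly pseudogenes, covered 51.9% of the Ccnb1 transcript, 42.5% of Stmn1, 34.7% of Cks2 and 28.3% of Mybl2. Of the matching genes, those of Ccnb1 that have a row in the table summed to 0.0417 and 0.0832 FPKM, that of Stmn1 was at 0.120 and 0.119 FPKM, and those of Cks2 with a row summed to 0.899 and 0.672 FPKM. No level is given for those of Mybl2. Tnnc2 was at 0.433 and 0.324 FPKM and Exosc9 at 13.1 and 11.8 FPKM. How reads in shared sequence were counted is not known, and its effect on the ratios was not tested.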

How the data were processed

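Per the labels' protocols, 3 µg of total RNA went into each of 2 NEBNext Ultra libraries, 1 for each population. The authors deposited 1 table of FPKM by Ensembl gene, with a column for each library. In the column names, P was taken to stand for Thy1.1-positive cells and N for Thy1.1-negative cells. Per the submitters' processing notes the tools were Bowtie2 2.2.3, TopHat2 2.0.12 and HTSeq 0.6.1 on mm9, with settings and filters not given in the sources used here. Symbols came from GENCODE M21 for 40254 of 41592 IDs (96.8%). That annotation is on GRCm38, so no position is given except the RefSeq promoter windows.

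FPKM is not a count, so no count model was used to call genes, and with 1 library per population no test was possible. The Clopper-Pearson intervals do treat the recovered reads as binomial counts. Genes were called by size, with a pseudocount of 1 and a minimum mean of 1 FPKM. For the 23442 genes detected in both libraries, FPKM ratios between libraries were whole-number ratios times a factor of 1.00347, within a relative tolerance of 1e-12. Reads were the multiple of those whole numbers that made the implied gene length whole (tolerance 1e-05 bases) and nearest to the annotated mean transcript length. In 28 of the 54 genes the implied and annotated lengths differed by at most 1 base, and for 15 of the 54 the multiple exceeded 1. The library totals were themselves inferred from the FPKM values and annotated lengths, and the reads so obtained came to 100.8% and 100.7% of them. PCR reads without molecular identifiers are not independent molecules, so the intervals can be too narrow even for counting error, and they cover nothing else.

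All 54 genes are named. For each related list the genes with the largest and smallest difference and up to 2 more with the largest absolute difference are named. The genes, the lists and the alternatives were chosen with earlier results of these data known. Near-identical stretches were found with blastn 2.17.0, and Python 3.11.15, numpy 2.4.6, scipy 1.17.1 and pandas 2.3.3 were used. The alternatives changed the pseudocount to 0.1 or 5, the filter to none or a mean of 5 FPKM, and the fold rule to 1.5 or 4, or used rescaled libraries, and smallest whole numbers for reads.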

Additional observations from a re-analysis of the deposited data

How the results depend on the processing

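Of the 54 genes, 32 were higher and 0 lower, with a median difference of 1.19, and over all genes 247 were higher and 148 lower. A pseudocount of 5 left 8 of the 54 higher, with a median of 0.58, and 72 higher and 19 lower of all genes. The 8 were Aurkb, Ccna2, Ccnb2, Mki67, Racgap1, Stmn1, Top2a and Ube2c. A pseudocount of 0.1 gave 402 and 293 of all genes. With no pseudocount, chosen after seeing the data, the median was 1.78 and 459 and 305 of all genes were called. A mean of at least 5 FPKM kept 23 of the 54, of which 10 were higher, with a median of 0.91. It kept 8929 of all genes, of which 107 were higher and 60 lower. A 4-fold rule left 6 of the 54 and 31 and 9 of all genes, and a 1.5-fold rule gave 745 and 493 of all genes. Upper quartile scaling moved the median of all genes to 0.26 and gave 409 and 80 of all genes, and 39 of the 54 with a median of 1.36. Centring on the median difference left Cdc20 and Cenpe below the call, and a sum without the 100 highest genes left Cdc20 below it. No gene of the 50 with a mean of at least 1 FPKM changed sign under any of these settings, and the other 4 were not followed through them. With the smallest whole numbers as reads, 50 of 54 intervals in place of 51 lay above 1. Depth limits the 12 genes with under 20 reads in the Thy1.1-positive library. No paired analysis was possible because each population has 1 library and the labels carry no replicate numbers.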
